A study of Mus musculus with 2 samples.

Results

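Genes of the coagulation and plasminogen system were followed through single-cell RNA-seq of mouse dorsal skin, 9 in number, namely Plaur, Plau, Plat, Serpine2, F3, F5, Procr, Thbd and Tfpi. The rule was a match of the gene symbol in both count matrices, and it found 9 rows of the 33904 gene rows. The study made 1 Ctrl library and 1 AD library from female C57BL/6J mice that were 7 weeks old, whose dorsal hair was taken off with depilatory cream 24 h earlier. Ctrl skin received 100% ethanol and AD skin received MC903 (calcipotriol, a vitamin D analogue) in ethanol at 4.5 nmol per application, once a day for 10 days over an area of 2 cm by 2 cm, and both were taken on day 10. How many mice went into a library was not given in the sources used here, and MC903 skin is a chemically provoked model of atopic dermatitis-like inflammation in one inbred strain. With 1 library per group there was no replicate and no test, so every ratio below compares these 2 libraries, and library, mouse and treatment cannot be told apart.

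The plasminogen system turns the inactive plasma protein plasminogen into plasmin, a protease that dissolves fibrin and degrades matrix around cells. Plau encodes urokinase and Plat tissue plasminogen activator, Plaur encodes the cell surface receptor that holds urokinase, and Serpine2 encodes protease nexin-1, an inhibitor of thrombin and of both activators. Coagulation starts when tissue factor, the product of F3, meets plasma factor VII, and factor V (F5) is the cofactor with which thrombin is made. Tfpi inhibits the tissue factor pathway, while thrombomodulin (Thbd) and the endothelial protein C receptor (Procr) together turn thrombin toward activating the anticoagulant protein C. In skin, tissue factor is known from cells around vessels and from epidermis, and Thbd and Procr are known from endothelium.

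The 250 bases before the start sites of Plaur, F3 and Procr are shown because their levels in T cells, macrophages or fibroblasts are the first question here, from RefSeq on GRCm38.p6, all on the plus strand. The capitals mark the only match in each of TGACTCA or its reverse complement TGAGTCA, the letters bound by AP-1 factors. The Plaur stretch is chr7:24462233-24462482, that of F3 is chr3:121723287-121723536 and that of Procr is chr2:155750967-155751216.
Plaur: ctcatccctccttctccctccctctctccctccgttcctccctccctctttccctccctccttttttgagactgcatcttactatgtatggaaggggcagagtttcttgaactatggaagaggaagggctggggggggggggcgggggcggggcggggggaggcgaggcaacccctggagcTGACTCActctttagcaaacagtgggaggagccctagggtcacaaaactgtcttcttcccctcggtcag
F3: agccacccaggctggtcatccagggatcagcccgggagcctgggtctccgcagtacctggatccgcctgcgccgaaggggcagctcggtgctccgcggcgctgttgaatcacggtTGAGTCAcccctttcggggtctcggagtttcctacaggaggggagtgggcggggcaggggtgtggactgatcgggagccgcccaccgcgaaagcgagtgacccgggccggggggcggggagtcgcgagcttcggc
Procr: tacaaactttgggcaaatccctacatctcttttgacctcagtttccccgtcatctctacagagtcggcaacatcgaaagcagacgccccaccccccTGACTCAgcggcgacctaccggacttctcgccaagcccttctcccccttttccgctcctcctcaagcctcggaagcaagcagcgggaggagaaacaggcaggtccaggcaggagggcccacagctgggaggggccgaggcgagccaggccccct
The matches began 69 bases before the RefSeq start in Plaur, 135 in F3 and 154 in Procr, and they overlapped neither of the other motifs searched. The Procr stretch ends at 155751216, past the GENCODE start at 155751117, so the distance in Procr holds for the RefSeq start only. RefSeq promoters were matched for 6 of the 9 members, and no AP-1 match lay in those of Serpine2, F5 or Tfpi. The Serpine2 stretch, chr1:79858666-79858915, and a Tfpi stretch, chr2:84474175-84474424, both on the minus strand, lie inside the GENCODE spans of these genes. What was found there holds for the RefSeq starts only, and the bases before the GENCODE start of Serpine2 were not searched. Plau, Plat and Thbd had no matched promoter and were not searched, so the search does not cover all members. Among 32851 RefSeq promoters of the same length, 4.46% held the AP-1 letters on either strand. The Sp1 letters GGGCGG, found in 32.7% of all promoters, occurred 3 times in Plaur, 3 times in F3 and not in Procr, and AGGTCA, a single arm of the site of nuclear receptors found in 14.0%, occurred once in Procr and once in F5. These are matches of letters only, and any link between them and the levels below was not tested. On GRCm38 the genes lie, by GENCODE M21, at chr7:24462484-24475968 (Plaur), chr14:20836660-20843385 (Plau), chr8:22757727-22782844 (Plat), chr1:79794197-79861180 (Serpine2), chr3:121723537-121735048 (F3), chr1:164151838-164220277 (F5), chr2:155751117-155755471 (Procr), chr2:148404466-148408188 (Thbd) and chr2:84432855-84476775 (Tfpi), all protein coding.

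Each kept cell was placed in a class from marker genes, none of which was a member. Ctrl held 11399 kept cells with a median of 7813 UMIs (transcript molecules) and AD 8179 with a median of 6330, and 938 Ctrl cells (8.23%) and 1394 AD cells (17.0%) stayed unassigned. In classes with 20 or more cells, each marker was over 2-fold higher inside its class than outside, except for 1 of the 8 dendritic cell markers in AD. The median level of the 7 fibroblast markers was nonetheless far apart, with 8766 CPM for Ctrl against 729 CPM for AD (CPM, UMIs of the gene divided by all UMIs of the class and scaled to a total of 1e6 UMIs). Clustering of both libraries together put Ctrl and AD fibroblasts almost wholly in different clusters, and 1 cluster with 727 AD cells and 17 Ctrl cells had 61.2% of its cells unassigned. Both libraries shared 35 cell barcodes. Intervals are 95% and, like the limits at 0 counts, cover counting error only.

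**Figure D1:**
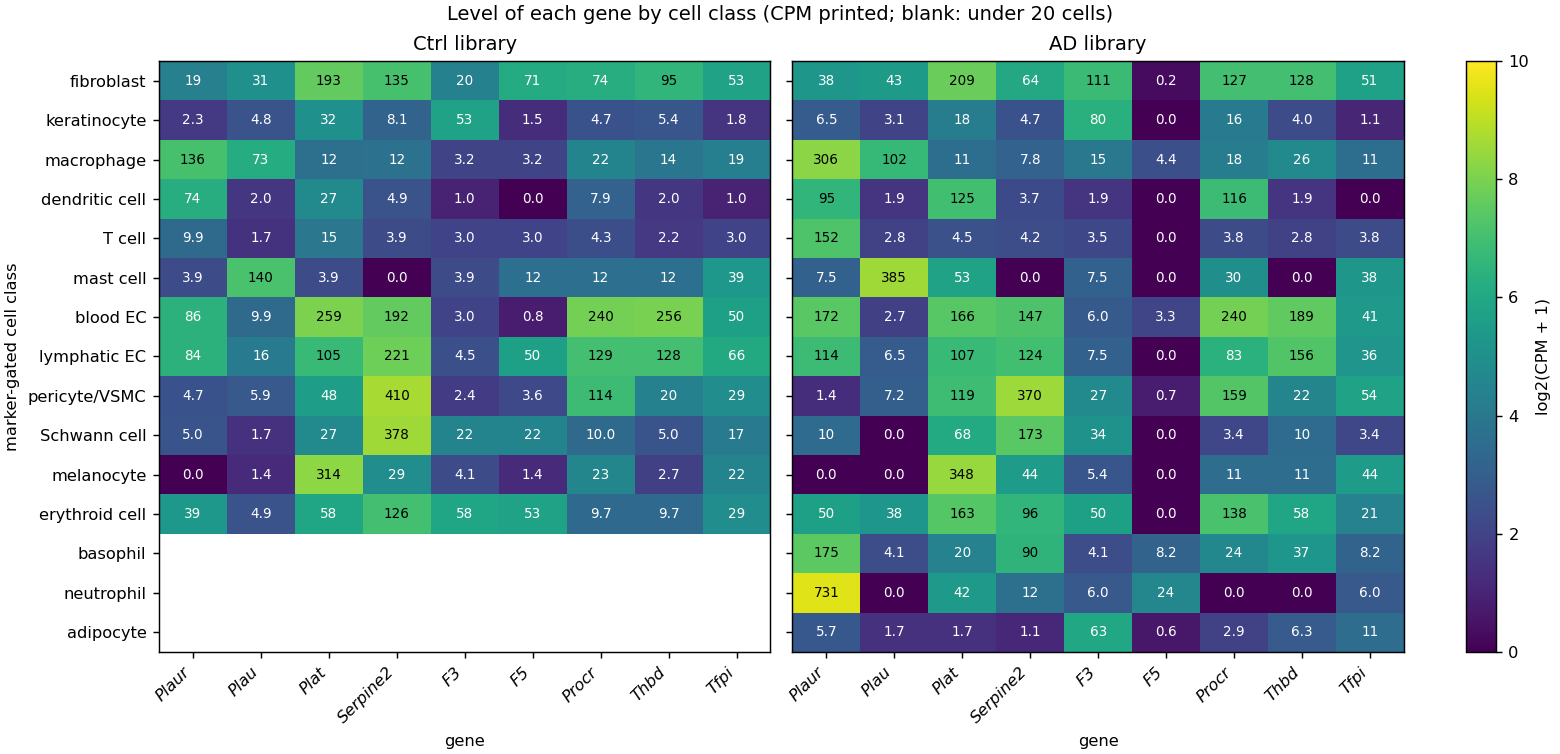
Heat maps of the level of each gene (columns) in each marker-gated class with 20 or more cells (rows) for the Ctrl and the AD library, with colour for log2(CPM + 1) and CPM printed in each field. Plaur stood highest in AD neutrophils (731 CPM), and F5 went from 70.6 CPM in Ctrl fibroblasts to 0.214 CPM in AD fibroblasts.

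Plaur in T cells was the widest step upward among the members with over 100 UMIs in a class. In Ctrl, 655 T cells held 23 UMIs, a level of 9.92 CPM (6.29 to 14.9), and in AD 427 T cells held 437 UMIs, a level of 152 CPM (138 to 167). The AD level was 15.3-fold higher, giving a log2 ratio of 3.94 (3.33 to 4.61), and the intervals lay far apart. A UMI of Plaur was seen in 2.60% of Ctrl T cells (1.52 to 4.12) and in 39.1% of AD T cells (34.5 to 43.9). Those cells were deeper in AD, with medians of 3127 and 5636 UMIs. Thinned to 1000 UMIs per cell, the shares were 0.767% and 12.2%. Among pericytes with vascular smooth muscle cells, the class chosen to lack the gene, 2.30% of 261 Ctrl cells and 1.23% of 163 AD cells had a UMI, at median depths of 5251 and 7659 UMIs. The Ctrl T cell share was thus close to that of this class, though from shallower cells, and the AD share far above it. After thinning the Ctrl shares were 0.767% in T cells and 0.388% in this class. By CPM the 2 classes overlapped in Ctrl, at 9.92 CPM in T cells and 4.75 CPM (2.05 to 9.36) in this class.

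Among all 7899 genes tested in T cells, those with a mean of at least 10 CPM over both libraries, 2.15% were higher in AD by 2-fold or more and 6.58% lower, on log2(CPM + 1). Plaur was the only member to pass that minimum level in T cells. The median log2 ratio of all tested genes in this class was -0.17. The 8 macrophage markers summed to 28.5 CPM in Ctrl T cells and 26.4 CPM in AD T cells, 0.307% and 0.416% of their level in macrophages, with 1 marker at 0 in each. The 6 neutrophil markers summed to 1.72 and 7.65 CPM, 0.0041% and 0.00567% of their level in neutrophils, with 4 and 2 at 0. In T cells with no UMI of any macrophage, neutrophil or dendritic marker (560 and 265 cells), Plaur was at 10.4 and 168 CPM, so the log2 ratio was as large, at 4.01 (3.36 to 4.75). In T cells with a Cd3d, Cd3e or Cd3g UMI it was 3.90 (3.29 to 4.59).

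The AD level was not the same across T cells. In cells with a UMI of Foxp3, the regulatory T cell factor, Plaur had 1 UMI in 93 Ctrl cells and 1 UMI in 51 AD cells, 3.20 CPM and 2.66 CPM. The upper limit of that AD level was 14.8 CPM, below the level of all AD T cells. In cells with a UMI of Trdc, the constant part of the gamma delta receptor, and none of Foxp3, the level was 16.5 CPM in 200 Ctrl cells and 270 CPM (224 to 322) in 95 AD cells. Cells with neither UMI were at 7.83 CPM in 362 Ctrl cells and 153 CPM (137 to 171) in 281 AD cells. The Trdc and Foxp3 groups did not overlap in AD within counting error.

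3 further groupings were chosen after these values were seen. Cells with a Cd4 UMI, the helper co-receptor, stood at 6.76 CPM in 128 Ctrl cells and 116 CPM (99.6 to 135) in 165 AD cells. Cells with a Cd8a or Cd8b1 UMI, the cytotoxic co-receptor, stood at 2.07 CPM in 108 Ctrl cells and 107 CPM (79.0 to 142) in 62 AD cells. Cells with a UMI of Il4 or Il13, the type 2 cytokines, stood at 187 CPM (159 to 219) in 85 AD cells, and 29 such Ctrl cells held 1 UMI. These cells made up 4.43% of Ctrl T cells and 19.9% of AD T cells. A higher AD level was thus found in each of these groups other than the Foxp3 group.

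**Figure D2:**
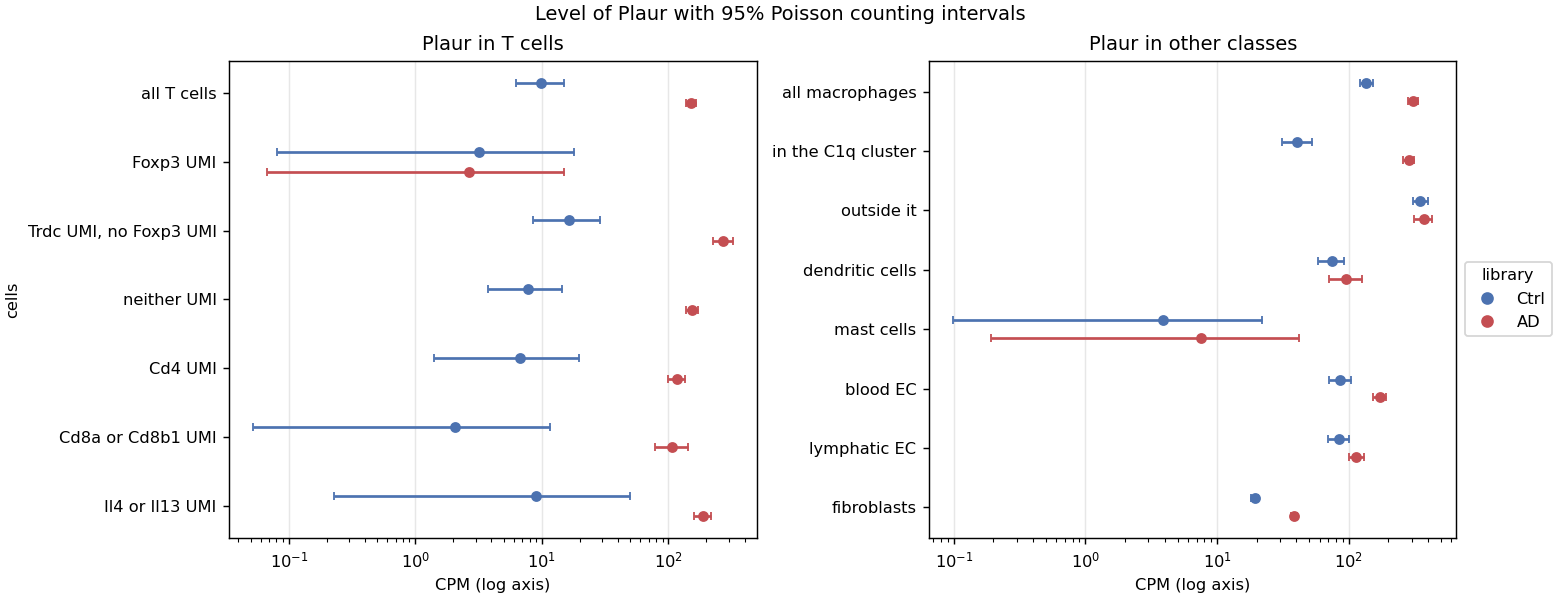
Level of Plaur in CPM on a log axis for groups of T cells (left) and for other classes (right), as points with 95% Poisson intervals, Ctrl in blue and AD in red. In T cells with a Foxp3 UMI both libraries had 1 UMI and wide intervals, and in the macrophage cluster the level went from 40.6 to 285 CPM while macrophages outside it stayed at 349 and 370 CPM.

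In macrophages, Plaur stood at 136 CPM (121 to 152) in 466 Ctrl cells and 306 CPM (281 to 332) in 208 AD cells, from 299 and 551 UMIs. The log2 ratio was 1.17 (0.97 to 1.38), where 5.62% of 7771 tested genes were higher by 2-fold or more and 7.55% lower, and Plaur was 1 of 7 members tested and the only one past 2-fold in either direction. A UMI was seen in 24.2% of Ctrl and 60.1% of AD macrophages (medians of 4562.5 and 7644 UMIs), and in 9.56% and 17.4% after thinning. The size of this step depended on which cells counted as macrophages, since the log2 ratio was 2.11 with the stricter gate and 2.84 with Leiden clusters.

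The Ctrl macrophages were of 2 kinds in their clusters. In the cluster led by the complement genes C1qa, C1qb and C1qc with Pf4 and Mrc1, 367 Ctrl cells held 62 UMIs, 40.6 CPM (31.1 to 52.1), and 176 AD cells held 388 UMIs, 285 CPM (257 to 315), giving a log2 ratio of 2.81 (2.42 to 3.22). Outside that cluster, 99 Ctrl cells held 237 UMIs, 349 CPM (306 to 397), and 32 AD cells held 163 UMIs, 370 CPM (315 to 431), giving a log2 ratio of 0.08 (-0.22 to 0.38). Most of these other cells lay in an unnamed cluster led by Cd74, H2-Aa, Il1b, Lyz2 and Mgl2. So 79.3% of the Plaur UMIs of Ctrl macrophages came from 21.2% of the cells. This division was made after the values were seen.

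Neutrophils, which are short-lived granulocytes, had the highest Plaur level of any class, 731 CPM (607 to 873) from 122 UMIs in 44 AD cells, of which 90.9% had a UMI. Ctrl held 5 neutrophils with 2 UMIs, so no ratio is given. AD basophils stood at 175 CPM (127 to 236) in 42 cells, and 8 Ctrl basophils held 5 UMIs. Dendritic cells stood at 73.9 and 95.3 CPM in 114 and 34 cells, with overlapping intervals, but different clusters held most of them in each library. In the cluster led by Ccr7, Ccl22 and Fscn1, 2 UMIs in 19 Ctrl cells gave 12.9 CPM and 17 UMIs in 27 AD cells gave 37.6 CPM, 1.54 (-0.53 to 4.70). Outside it, 95 Ctrl cells stood at 84.9 CPM and 7 AD cells at 412 CPM, 2.28 (1.65 to 2.88). Of the 51 UMIs of AD dendritic cells, 22 came from 1 cell, which lay outside that cluster. In blood vessel endothelial cells the level was 85.7 CPM (70.6 to 103) in 192 Ctrl cells and 172 CPM (154 to 192) in 183 AD cells, and in fibroblasts 19.3 and 38.4 CPM, log2 ratios of 1.01 (0.69 to 1.33) and 0.99 (0.88 to 1.11). Lymphatic endothelial cells stood at 83.9 and 114 CPM, giving a log2 ratio of 0.44 (0.11 to 0.78) that was -0.22 with the stricter gate, which left 59 and 61 cells. Keratinocytes were low in both libraries, at 2.29 and 6.54 CPM, and melanocytes had no UMI in 69 and 47 cells, which allows up to 4.08 CPM in Ctrl and 16.3 CPM in AD.

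Among classes with at least 50 cells, the Ctrl order was macrophages, then blood and lymphatic endothelial cells and dendritic cells with overlapping intervals, then fibroblasts, then T cells, which overlapped Schwann cells. In AD it was macrophages, then blood endothelial cells and T cells with overlapping intervals, then lymphatic endothelial cells. T cells supplied 1.09% of all Plaur UMIs of kept Ctrl cells and 11.7% of those of AD. Over the 21 pairs of class and library with at least 50 cells, the genes most like Plaur by Pearson's r of log2(CPM + 1) were Gbp9 (0.88), Slfn2 (0.85) and Rnf19b (0.84), among 8164 genes. Pairs of 1 library share their depth and preparation.

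Plau, the urokinase whose receptor Plaur encodes, had its highest level in mast cells. In 125 Ctrl mast cells 36 UMIs gave 140 CPM (98.3 to 194), and in 44 AD mast cells 51 UMIs gave 385 CPM (286 to 506), giving a log2 ratio of 1.46 (0.81 to 2.11). Macrophages stood at 73.0 and 102 CPM, 0.48 (0.17 to 0.80), and fibroblasts at 31.2 and 43.0 CPM, 0.46 (0.36 to 0.56). The fibroblast difference depended on which fibroblasts were counted. Among those outside the follicle lists, which are described below, Plau was 42.9 CPM in Ctrl and 44.5 CPM in AD. Those levels differed little, 0.05 (-0.05 to 0.15), an interval spanning no change. Listed fibroblasts were low in Plau, with 4.07 CPM in Ctrl and 2.30 CPM in AD. T cells (1.72 and 2.78 CPM) and Schwann cells (1 and 0 UMIs) were at the floor. Fibroblasts held 79.2% of the Plau UMIs of Ctrl and 79.4% of those of AD. In AD T cells the receptor was therefore seen with few transcripts of its ligand, 8 UMIs of Plau against 437 of Plaur.

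Among Ctrl fibroblasts Plau was concentrated in cells with 3 or more of Dpp4, Pi16, Cd55 and Mfap5, genes of interstitial fibroblasts, where it stood at 47.0 CPM against 6.21 CPM in the others. In AD the same division gave 46.5 and 42.5 CPM. The cells with 3 or more of these genes were 53.8% of Ctrl fibroblasts (3303 cells) and 11.1% of AD fibroblasts (524 cells). Whether cells moved between the groups or the 4 genes themselves changed cannot be told apart here.

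Plat, tissue plasminogen activator, stood in fibroblasts at 193 CPM (190 to 197) in Ctrl and 209 CPM (204 to 214) in AD, giving a log2 ratio of 0.11 (0.07 to 0.15) that turned to -0.23 (-0.27 to -0.18) without the follicle lists described below. Fibroblasts with 3 or more of Dpp4, Pi16, Cd55 and Mfap5 stood at 274 and 252 CPM, and the others at 65.2 and 202 CPM, 1.63 (1.55 to 1.72). Its highest level was in melanocytes, 314 CPM (275 to 357) in 69 Ctrl cells and 348 CPM (268 to 445) in 47 AD cells, which overlapped. Blood vessel endothelial cells stood at 259 and 166 CPM, -0.64 (-0.87 to -0.41), though 0.44 with the stricter gate (90 and 106 cells). Pericytes and vascular smooth muscle cells were at 48.1 CPM (38.2 to 59.8) and 119 CPM (101 to 138), giving a log2 ratio of 1.31 (0.91 to 1.71) that was 0.66 with Leiden clusters, and Schwann cells at 26.6 and 68.0 CPM, 1.35 (0.33 to 2.40) from 16 and 20 UMIs. Keratinocytes were lower in AD, 31.5 and 17.6 CPM, and T cells, the class chosen to lack the gene, stood at 14.7 and 4.52 CPM with UMIs in 3.97% and 2.81% of cells.

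Serpine2, protease nexin-1, was highest in pericytes and vascular smooth muscle cells, 410 CPM (380 to 441) in Ctrl and 370 CPM (338 to 403) in AD, -0.15 (-0.32 to 0.02). It was lower in AD in Schwann cells, 378 CPM (330 to 430) and 173 CPM (129 to 228), in lymphatic endothelial cells, 221 and 124 CPM, and in blood vessel endothelial cells, 192 and 147 CPM, though in the last the ratio turned to 0.42 with the stricter gate. Fibroblasts as a whole went from 135 CPM (132 to 138) to 64.5 CPM (62.0 to 67.1), giving a log2 ratio of -1.06 (-1.13 to -0.996) that was -0.34 over all deposited barcodes. The unassigned AD cells held a further 19.1% of the Serpine2 UMIs of AD, at 160.3 CPM, against 4.92% and 85.4 CPM for the unassigned Ctrl cells.

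That fibroblast ratio reversed when 2 kinds of fibroblast were set apart. Cells with 2 or more of Wif1, Hhip and Rspo3, or with 2 or more of Acta2, Lrrc15 and Col11a1, genes of mesenchyme at hair follicles, were 1595 Ctrl fibroblasts (26.0%) and 112 AD fibroblasts (2.38%). These lists were chosen after values were seen. Serpine2 stood at 738 CPM (719 to 756) in the 872 Ctrl cells of the Wif1 list and at 431 CPM (391 to 474) in the 74 AD cells. Most of those AD cells lay outside the cluster led by Wif1, Hhip and Rspo3, among others, which held 770 Ctrl and 2 AD cells. In the fibroblasts with neither list Serpine2 was 28.9 CPM (27.2 to 30.6) in 4547 Ctrl cells and 54.3 CPM (51.9 to 56.7) in 4598 AD cells, giving a log2 ratio of 0.91 (0.81 to 1.02). The cells of both lists held 85.0% of the Serpine2 UMIs of Ctrl fibroblasts and 18.8% of those of AD.

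**Figure D3:**
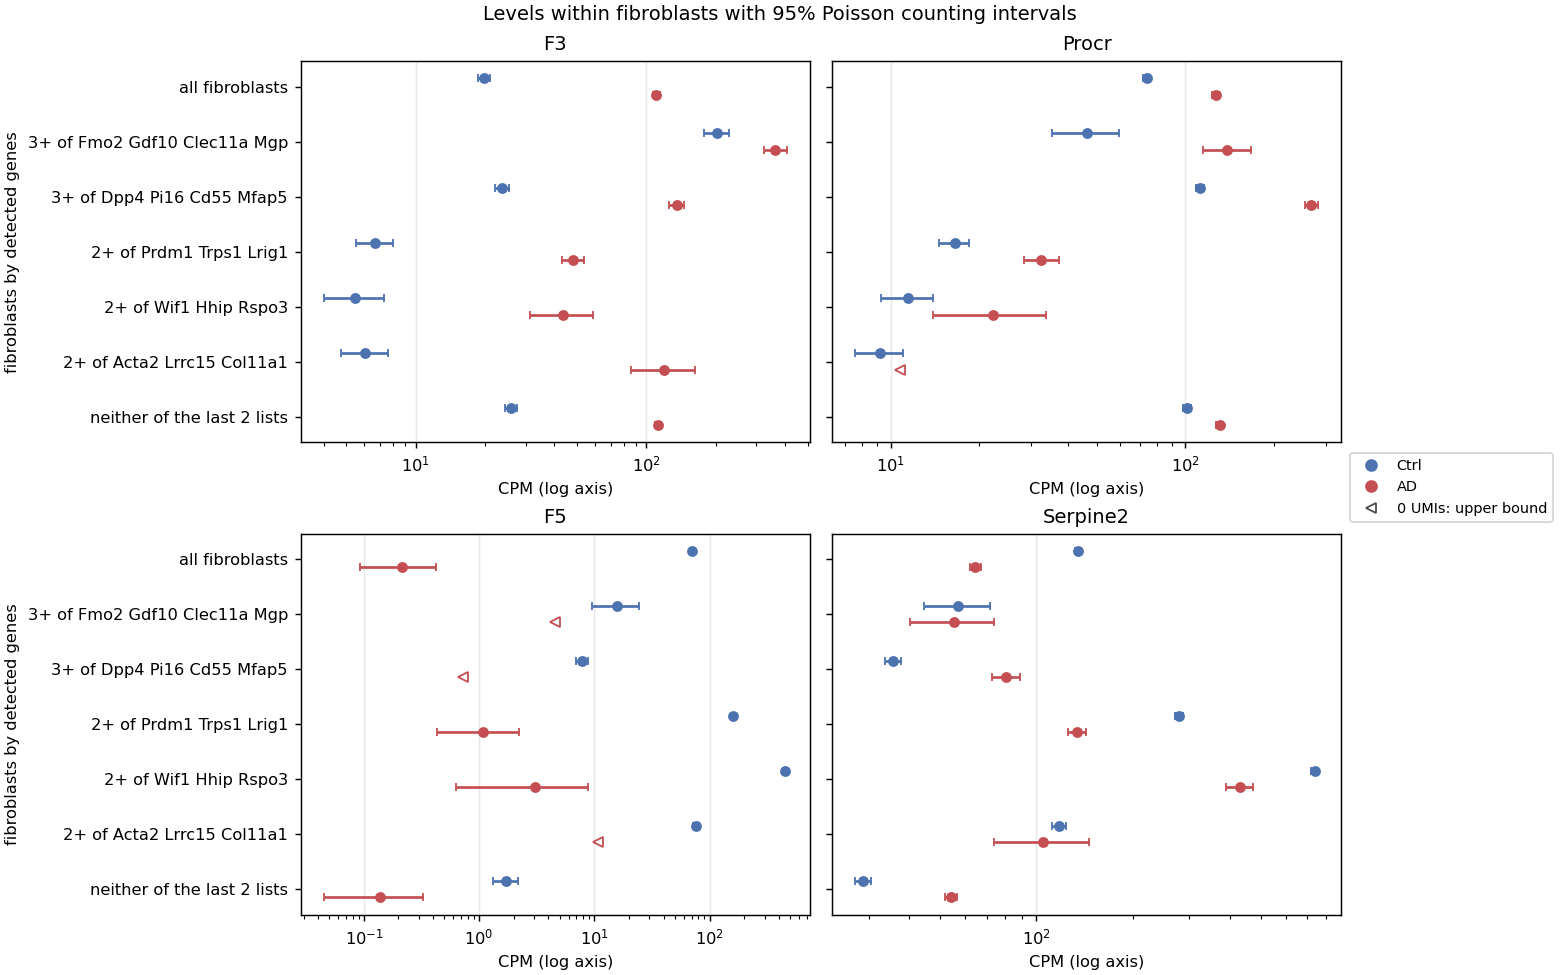
Levels of F3, Procr, F5 and Serpine2 in all fibroblasts and in groups of fibroblasts set by detected genes, in CPM on log axes with 95% Poisson intervals, Ctrl in blue and AD in red, an open triangle being the upper limit at 0 UMIs. F3 was higher in AD in every group plotted, whereas Serpine2 was lower over all fibroblasts (135 and 64.5 CPM) and higher in those with neither follicle list (28.9 and 54.3 CPM).

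F3, tissue factor, stood in fibroblasts at 19.9 CPM (18.7 to 21.0) from 1134 UMIs in 6142 Ctrl cells and at 111 CPM (107 to 114) from 4141 UMIs in 4710 AD cells. The AD level was 5.58-fold higher, giving a log2 ratio of 2.48 (2.38 to 2.58). Among 8606 genes tested in fibroblasts, 6.41% were higher by 2-fold or more and 11.4% lower, and of the 9 members, all tested, F3 was higher and Serpine2 and F5 were lower by that measure. A UMI was seen in 9.62% of Ctrl cells (8.90 to 10.4) and 33.6% of AD cells (32.2 to 34.9), at medians of 8527 and 7055.5 UMIs, and in 2.04% and 8.50% after thinning. In T cells, chosen to lack the gene, 1.07% and 1.64% of cells had a UMI. The 10 keratinocyte markers summed in fibroblasts to 281 CPM in Ctrl and 46.4 CPM in AD, 1.49% and 0.422% of their level in keratinocytes, and their part in the F3 levels was not tested.

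The AD level of F3 was higher in each group of fibroblasts that was set apart. Cells with 3 or more of Fmo2, Gdf10, Clec11a and Mgp, genes of adipogenesis-regulatory fibroblasts, had the highest level, 203 CPM (179 to 229) in 145 Ctrl cells and 363 CPM (323 to 407) in 100 AD cells, and all other fibroblasts stood at 15.7 and 105 CPM. Those 145 cells, 2.36% of Ctrl fibroblasts, held 22.8% of the F3 UMIs of the class, against 7.15% for the 100 AD cells. A fibroblast cluster led by Fmo2 and Mgp, among others, held 18 Ctrl and 1462 AD cells. Most of its AD cells thus counted among the other fibroblasts, and their part in the F3 level was not tested. Cells with 3 or more of Dpp4, Pi16, Cd55 and Mfap5 stood at 23.7 and 135 CPM and the rest at 13.8 and 107 CPM. In cells of the Wif1 list the level was 5.47 and 43.5 CPM, and without both follicle lists the log2 ratio was 2.12 (2.02 to 2.22).

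Keratinocytes held 56.3% of all F3 UMIs of kept Ctrl cells and fibroblasts 39.3%, while in AD keratinocytes held 8.62% and fibroblasts 81.5%. Keratinocytes themselves stood at 53.1 CPM (50.6 to 55.8) in 1977 Ctrl cells and 79.6 CPM (72.3 to 87.4) in 392 AD cells, giving a log2 ratio of 0.58 (0.43 to 0.74). In those with more UMIs of basal than of suprabasal genes the level was 32.4 and 64.5 CPM, 0.99 (0.80 to 1.18). In the others it was 103 CPM (96.8 to 110) in 456 Ctrl cells and 556 CPM (449 to 680) in 9 AD cells. Suprabasal cells, the outer layers of living epidermis, thus had the higher F3 level in both libraries, and only 9 were left in AD.

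Pericytes and vascular smooth muscle cells had 4 UMIs of F3 in 261 Ctrl cells and 37 in 163 AD cells, 2.37 CPM (0.647 to 6.08) and 26.8 CPM (18.9 to 37.0), giving a log2 ratio of 3.50 (2.02 to 5.45). The fibroblast F3 level was higher in the same library, and whether RNA of fibroblasts entered these counts was not tested. AD adipocytes, of which Ctrl had 1 cell, stood at 62.8 CPM (51.6 to 75.7) in 90 cells, 45.6% of them with a UMI. Macrophages were at 3.17 and 14.98 CPM from 7 and 27 UMIs, with a log2 ratio of 2.24 that was 0.87 without the cells of the top doublet scores, and blood vessel endothelial cells at 3.03 and 6.03 CPM. The genes most like F3 over the 21 pairs were one known only by its identifier, ENSMUSG00000121137 (r = 0.94), Mt2 (0.93), a metallothionein, and Ptges (0.85), a prostaglandin E synthase.

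F5, coagulation factor V, was at 70.6 CPM (68.4 to 72.8) in Ctrl fibroblasts and nearly absent from those of AD, where 8 UMIs in 4710 cells gave 0.214 CPM (0.0924 to 0.422). The 4033 UMIs of Ctrl fibroblasts came from 9.56% of the cells, and 94.6% of them were in the 872 cells of the Wif1 list, at 454 CPM (439 to 468). The 74 AD cells of that list held 3 UMIs, 3.04 CPM (0.626 to 8.87). Fibroblasts with neither follicle list stood at 1.70 CPM (1.32 to 2.16) in Ctrl and 0.139 CPM (0.045 to 0.323) in AD. F5 was thus lower in AD both inside and outside the list. The listed cells were not alike, since the cluster led by F5, Wif1, Hhip and Rspo3, among others, held 770 Ctrl and 2 AD cells. Most of the 74 AD cells therefore lay in other clusters. F5 in all kept cells went from 4380 UMIs to 42.

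Outside fibroblasts F5 was scarce. Lymphatic endothelial cells of Ctrl held 67 UMIs (49.8 CPM), but in only 2.67% of 225 cells, and the 245 AD cells held none, 33.1-fold lower against a floor of 3 counts in the AD class, and the exact interval put the log2 ratio at -4.71 or below. Of the 67 UMIs, 35 came from 1 cell. Schwann cells, the class chosen to lack the gene, held 13 UMIs in 2.14% of 187 Ctrl cells and none in 80 AD cells. Of these 13 UMIs, 8 came from 1 cell. Erythroid cells of Ctrl held 11 UMIs, all in 1 of 32 cells, and those of AD none in 76, though 20 and 6 of these cells lay in the erythroid cluster. The fibroblast F5 level was lower in the same library, and its part in these counts was not tested.

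Procr, the endothelial protein C receptor, stood in fibroblasts at 73.8 CPM (71.6 to 76.1) from 4217 UMIs in Ctrl and 127 CPM (123 to 130) from 4741 UMIs in AD, giving a log2 ratio of 0.78 (0.72 to 0.84), under 2-fold. UMIs were seen in 20.1% and 26.5% of fibroblasts, in 5.46% and 8.03% after thinning, and in 1.53% and 1.87% of T cells, chosen to lack the gene. Without the cells of the follicle lists the log2 ratio was 0.37 (0.31 to 0.43), and 101 and 131 CPM were the levels. Procr was thus higher in AD fibroblasts under each setting, by an amount that moved with which fibroblasts were counted.

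As with Plau, the Ctrl transcripts lay in interstitial cells. Fibroblasts with 3 or more of Dpp4, Pi16, Cd55 and Mfap5 stood at 112 CPM (109 to 116) in Ctrl and 267 CPM (253 to 282) in AD, giving a log2 ratio of 1.25 (1.16 to 1.34), and the others at 13.1 CPM (11.6 to 14.7) and 105 CPM (101 to 108), 3.00 (2.83 to 3.18). The first group held 93.1% of the Procr UMIs of Ctrl fibroblasts and 28.6% of those of AD. Both groups had ratios over 2-fold although the whole class did not. The group with the higher level was 53.8% of Ctrl and 11.1% of AD fibroblasts. The others were not alike in both libraries, since their Serpine2 level was 292 CPM for Ctrl against 62.0 CPM for AD. Cells of the follicle lists held 85.0% of the Serpine2 UMIs of Ctrl fibroblasts, and their Procr level was only 10.4 CPM. The part of these cells in the ratio of 3.00 was not tested, so it cannot be read as a rise within like cells. The cells with 3 or more of Fmo2, Gdf10, Clec11a and Mgp stood at 46.2 and 139 CPM.

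Blood vessel endothelial cells had the highest Procr level of the classes with at least 50 cells, 240 CPM (214 to 267) in Ctrl and 240 CPM (218 to 264) in AD, giving a log2 ratio of 0.00 (-0.21 to 0.22). Pericytes and vascular smooth muscle cells were at 114 and 159 CPM, 0.48 (0.19 to 0.76), and lymphatic endothelial cells at 129 and 82.6 CPM, -0.65 (-0.96 to -0.33), which was 1.28 with the stricter gate. Keratinocytes stood at 4.68 and 15.98 CPM, 1.77 (1.37 to 2.17), or 0.88 with Leiden clusters, and Procr was the only 1 of the 3 members tested there past 2-fold, where 5.48% of 8619 genes were higher and 9.77% lower. Dendritic cells held 8 UMIs in 114 Ctrl cells and 62 in 34 AD cells, 7.88 CPM (3.40 to 15.5) and 116 CPM (88.8 to 149). The cluster led by Ccr7, Ccl22 and Fscn1, genes of mature dendritic cells, held 19 of those Ctrl cells and 27 of the AD cells, with 1 UMI (6.44 CPM) and all 62 UMIs (137 CPM). Of the 62 UMIs, 25 came from 1 cell. Erythroid cells, which are not known for this receptor, held 33 UMIs in 21.1% of 76 AD cells, 138 CPM, and 2 UMIs in 32 Ctrl cells. Only 6 of those AD cells but 20 of the Ctrl cells lay in the erythroid cluster, so the class was not alike in both libraries. The genes most like Procr over the 21 pairs were Ebf3 (0.88), Snai1 (0.88) and Abcg2 (0.87).

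Thbd, thrombomodulin, was highest in blood vessel endothelial cells, 256 CPM (230 to 285) in Ctrl and 189 CPM (170 to 210) in AD, giving a log2 ratio of -0.44 (-0.66 to -0.22). Lymphatic endothelial cells stood at 128 and 156 CPM, 0.29 (0.01 to 0.56), and with Leiden clusters at -0.13. Fibroblasts stood at 94.8 and 128 CPM, 0.44 (0.38 to 0.50), and without the follicle lists at 125 and 131 CPM, 0.07. Macrophages went from 14.1 to 26.1 CPM on 31 and 47 UMIs. T cells, chosen to lack it, had UMIs in 0.763% and 1.17% of cells.

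Tfpi, the tissue factor pathway inhibitor, differed little in fibroblasts, 53.3 CPM (51.4 to 55.2) and 51.3 CPM (49.1 to 53.7), giving a log2 ratio of -0.05 (-0.14 to 0.03), in the cells where F3 was 5.58-fold higher. It was lower in AD in lymphatic endothelial cells, 66.1 and 36.0 CPM, -0.87 (-1.34 to -0.41), and higher in pericytes and vascular smooth muscle cells, 29.1 and 53.6 CPM, 0.88 (0.34 to 1.43). Blood vessel endothelial cells stood at 50.04 and 41.1 CPM with overlapping intervals. In T cells, chosen to lack it, UMIs were seen in 0.916% and 2.34% of cells.

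**Figure D4:**
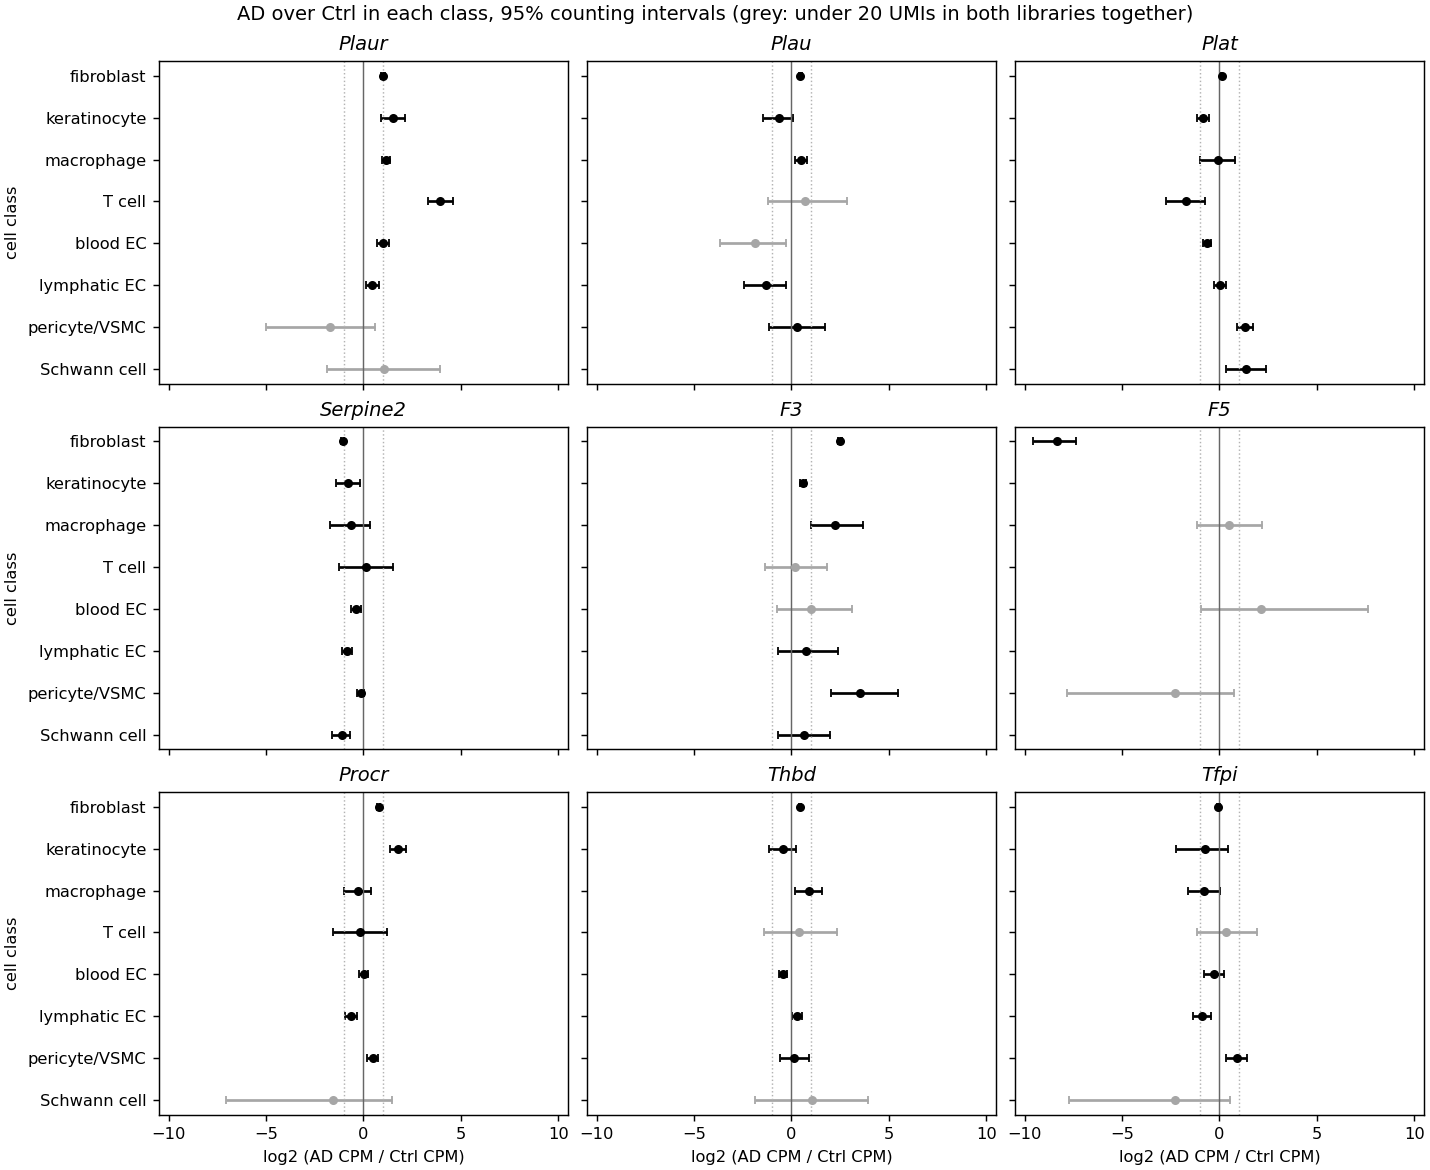
Log2 ratio of AD over Ctrl CPM for each gene (panels) in the 8 classes with at least 50 cells in both libraries, with 95% exact counting intervals, grey where fewer than 20 UMIs were counted in both libraries together and no point where 1 library had none. Plaur in T cells (3.94), F3 in fibroblasts (2.48) and F5 in fibroblasts (-8.37) lay outside the dotted lines at 2-fold.

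In the other classes the counts of members past 2-fold were small. Of the members above the minimum level, 0 of 6 passed in blood vessel endothelial cells (3.45% of 8250 genes higher, 8.28% lower). Plaur there had a log2 ratio of 1.01 but fell just short of 2-fold on log2(CPM + 1), the measure of these counts. In lymphatic endothelial cells 2 of 8, Plau and F5, were lower (3.91% of 8175 genes higher, 7.46% lower). That of Plau rests on 22 and 13 UMIs, and its log2 ratio of -1.33 turned to 0.0601 with the stricter gate. Plat and F3 were higher among 6 in pericytes and vascular smooth muscle cells (6.39% of 8327 genes higher, 9.64% lower). Among 5 in Schwann cells, Plat was higher and Serpine2, F5 and Tfpi were lower (7.81% of 8895 genes higher, 14.3% lower), with Tfpi on 10 and 1 UMIs. That of F5 rests on 13 and 0 UMIs, 8 of them from 1 Ctrl cell.

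Of 44 other genes of both systems, 43 were found in the matrices and few were expressed. In fibroblasts 14 were tested, of which Tfpi2 and Gas6 were higher by 2-fold or more and Anxa2, Mrc2, Vldlr, Ggcx and Vkorc1 lower, beside 6.41% and 11.4% of all genes tested. Gas6, a vitamin K-dependent ligand of TAM receptors, stood at 267 and 1038 CPM, and Anxa2, which with S100a10 binds plasminogen at the cell surface, at 585 and 121 CPM. Mrc2, a collagen receptor that partners the urokinase receptor, stood at 128 and 51.5 CPM, and Vkorc1, the enzyme that recycles vitamin K, at 134 and 26.3 CPM. S100a10 was at 878 and 476 CPM, Lrp1, which clears complexes of proteases with their inhibitors, at 612 and 962 CPM, and Pros1, the cofactor protein S, at 157 and 215 CPM.

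In macrophages 11 were tested, with Serpinb2, Lrp1, F7 and F10 higher and F13a1, Pros1 and Gas6 lower, beside 5.62% and 7.55% of all genes tested. F13a1, the subunit of factor XIII that cross-links fibrin, stood at 1794 and 644 CPM, Gas6 at 444 and 80.5 CPM, Pros1 at 173 and 68.8 CPM, Lrp1 at 88.9 and 290 CPM, and F10, factor X, at 23.6 and 52.7 CPM. S100a10 (757 and 959 CPM), Anxa2 (415 and 357 CPM) and Plgrkt (54.9 and 53.3 CPM), a plasminogen receptor, were under 2-fold. In keratinocytes 10 were tested, and 2 were higher and 0 lower, beside 5.48% and 9.77% of all genes tested. S100a10, which was higher, stood at 375 and 810 CPM. Serpinb2, an inhibitor of urokinase, was at 129 and 71.0 CPM there, Gas6 at 90.0 and 46.7 CPM, Anxa2 at 418 and 546 CPM, F2rl1, a receptor cut by proteases, at 57.0 and 60.9 CPM, and Plgrkt at 57.8 and 48.1 CPM.

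In T cells 7 were tested, where 2.15% of all genes were higher and 6.58% lower, and 1, Anxa2, was lower, at 362 and 158 CPM, while S100a10 (1084 and 951 CPM), Plgrkt (84.1 and 89.0 CPM) and the thrombin receptor F2r (63.8 and 51.5 CPM) were under 2-fold. In blood vessel endothelial cells 11 were tested, Lrp1 was higher and F8, Vkorc1 and Gas6 were lower, beside 3.45% and 8.28% of all genes tested. Vwf, the carrier of factor VIII, stood there at 114 and 212 CPM, Gas6 at 124 and 48.2 CPM, Pros1 at 152 and 99.7 CPM, Anxa2 at 367 and 250.4 CPM, S100a10 at 636 and 797 CPM and F2r at 62.9 and 77.3 CPM. In lymphatic endothelial cells 1 of 13 was higher and 4 lower, in pericytes and vascular smooth muscle cells 3 of 12 were higher and 0 lower, and in Schwann cells 0 of 10 passed in either direction, with the shares of all genes as given above for these classes.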

How the data were processed

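Single-cell suspensions of mouse dorsal skin were sequenced with 10x Genomics 3′ chemistry. The authors deposited, for each of the 2 libraries, a matrix of UMI counts per gene and barcode, without normalization. The submitters' processing notes name Cell Ranger 3.1.0, Seurat 5.0 and mm10, while the matrix header names Cell Ranger 5.0.0. Of the gene identifiers, 32475 are in GENCODE release M21 (GRCm38) and 1429 are not, so the annotation that was counted against is uncertain. The protocols also differ on the enzymes, collagenase D in the labels and collagenase IV in the series' text. Ctrl held 12598 barcodes with 125184653 UMIs and AD 8778 barcodes with 76106062 UMIs.

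Barcodes were kept between 200 and 6000 detected genes if no more than 10% of their UMIs were mitochondrial, the filter of the study's methods. Each cell was scored per class as the mean over its markers of log1p of counts per 10000, divided by the 95th percentile of cells with a UMI and capped at 1. A class needed 3 markers with a UMI and a score 1.5 times that of the next class, except between blood and lymphatic endothelium, macrophages and dendritic cells, and mast cells and basophils, where the higher score decided. The scoring was written after the files were seen, and that exception was added after class counts and members' values had been seen. Of the cells within 0.25 of the needed lead, 253 Ctrl and 80 AD cells were just inside and 230 and 88 just outside. Doublets were kept, because the automatic threshold of Scrublet marked 395 Ctrl cells (3.47%) and 0 AD cells and so did not work in AD.

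UMIs were summed per class and library and divided by all UMIs of the class (CPM). Levels have exact Poisson, shares Clopper-Pearson and ratios exact conditional binomial intervals. Thinning drew 1000 UMIs per cell (seed 0) and left out shallower cells. Background counts used log2(CPM + 1), a mean of at least 10 CPM and 2-fold. No test was run, with 1 library per group, and the ratio and its interval were tested on simulated data. The members, lists, background classes and motifs were chosen with earlier results of these data known. All 9 members were named in the classes, and other pathway genes where they reached 50 CPM in fibroblasts, T cells, macrophages, keratinocytes or blood vessel endothelial cells. The values of 1 gene of the list are not reported here. Names of genes counted past 2-fold but under that level were given without values. Alternatives were all barcodes, at least 500 genes and 1000 UMIs, each cell's own CPM, a stricter gate (4 markers, a lead of 2, no exception), Leiden clusters (scanpy 1.11.5, leidenalg 0.10.2, members left out), the top 5% of Scrublet scores left out, and centring on the median gene. Python 3.11.15, numpy 2.4.6, scipy 1.17.1, pandas 2.3.3 and matplotlib 3.10.9 were used.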

Additional observations from a re-analysis of the deposited data

Results flagged for a closer look

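Plat was over 2-fold higher in AD in pericytes and vascular smooth muscle cells (log2 ratio 1.31) and in Schwann cells (1.35), and over 2-fold lower in T cells (-1.70), with counting intervals on either side of 0. It was listed because the direction differed between classes under the same comparison, and the difference between classes was not tested. The T cell values rest on 34 and 13 UMIs in a class chosen to lack the gene, and the Schwann cell values on 16 and 20 UMIs. In T cells with no UMI of a macrophage, neutrophil or dendritic marker the log2 ratio was -0.83 (-2.24 to 0.45), which held 0. With a Cd3d, Cd3e or Cd3g UMI it was -1.75 (-2.84 to -0.74). The ratio in pericytes and vascular smooth muscle cells fell under 2-fold with Leiden clusters. Fibroblast markers in T cells summed to 802 CPM in Ctrl and 136 CPM in AD, and their part in the T cell values was not tested.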

How the results depend on the processing

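No paired analysis was possible because each group had 1 library. The 67 ratios of members, in 8 classes, gave 490 values under the alternatives, of which 431 lay within the reported counting interval, 50 lay outside it with the direction kept, or where the reported interval held 0, and 9 turned direction. Plaur in T cells stayed within its interval under every alternative. F3 in fibroblasts was 2.25 by each cell's own CPM and 2.12 without the follicle lists. Procr in fibroblasts was 0.98 by each cell's own CPM, 0.85 after centring and 0.37 without the follicle lists. Plau in fibroblasts went from 0.46 to 0.05 when the cells of these lists were left out. Plaur in macrophages was 2.11 with the stricter gate and 2.84 with Leiden clusters, whose Ctrl levels were 71.9 and 40.0 CPM and whose AD levels were 310 and 286 CPM. Directions turned for Plat (-0.23) and Serpine2 (0.91) in fibroblasts without the follicle lists, for Serpine2 in keratinocytes by each cell's own CPM (0.58), and for Thbd in lymphatic endothelial cells with Leiden clusters (-0.13). With the stricter gate they turned in blood vessel endothelial cells for Plat (0.44) and Serpine2 (0.42), and in lymphatic endothelial cells for Plaur (-0.22), Plau (0.0601) and Procr (1.28). That gate left 90 Ctrl and 106 AD blood vessel and 59 and 61 lymphatic endothelial cells, and the cause was not tested. The follicle lists, the T cell subsets without myeloid markers or with a Cd3 UMI, and the 5% of doublet scores were chosen after seeing the data.

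Counts of genes past 2-fold moved with the settings in all 8 classes. In fibroblasts 1534 became 946 with 10 CPM added, 2960 at a mean of at least 1 CPM and 632 at 50 CPM. In T cells 690 became 326, 2015 and 202, and in macrophages 1024 became 599, 2499 and 350. In keratinocytes 1314 became 848, 2447 and 436, in blood vessel endothelial cells 968 became 457, 2789 and 272, and in lymphatic endothelial cells 930 became 470, 2806 and 261. In pericytes and vascular smooth muscle cells 1335 became 782, 3083 and 452, and in Schwann cells 1969 became 1169, 4885 and 468. Depth limits classes of under 100 cells, where members often had fewer than 20 UMIs, and with 1 library per group no value here measures the spread between mice.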
